A study of Danio rerio with 4 samples.

Results

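The transcript of isl2b, a LIM-homeodomain transcription factor of zebrafish retinal ganglion cells, was followed in eyes after the optic nerve had been cut. Both array probes that carry the gene's RefSeq record were taken, which are 2 of 14067 zebrafish probes and 1 of 5175 genes with a proper symbol on the array. The array's own annotation calls the gene islet3 or isl3, older names of isl2b. The gene was chosen with its values on these arrays known, so they are given as a description and without a p-value. The probes carry the same record, and are called probe 1 and probe 2 in the order of the array positions.

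Eyes came from wild-type zebrafish bought in a pet store and kept on a 12 hour light/dark cycle, and the lens and sclera were taken off before RNA was made. In injured fish the muscles around the eye and the optic nerve were cut, and in sham-operated fish the muscles alone, so both operated groups share the muscle injury. At 3, 24 and 168 h after surgery, 3 arrays each set 1 injured pool of several fish against 1 sham pool on 2 colours, Cy3 and Cy5. A further 2 arrays compared pools of unoperated fish (left eyes, no treatment), with pool C2 in Cy5 on both and pools C3 and C4 in Cy3. The labels put injured RNA in Cy5 on every array, but the array names put sham RNA there on 6 of the 9 and injured RNA on 3, which are array 3 at 3 h, array 3 at 24 h and array 2 at 168 h. The authors' deposited table follows the array names, and so does every value here.

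Islet proteins bind DNA through a homeodomain and bind partner proteins through paired LIM domains. Their activity depends on LIM domain-binding (Ldb) cofactors, for which LIM-only (Lmo) proteins compete, while the ubiquitin ligase encoded by rlim marks Ldb proteins for degradation. In zebrafish larvae isl2b is switched on in ganglion cells as they form and its regulatory sequence is a standard tool to label their axons on the way to the tectum. Ganglion cells are a small share of the retina's cells but the only ones whose axons run in the optic nerve, and in fish they survive a cut in large numbers and regrow.

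The eye RNA held retina transcripts well above the empty array positions. A spot counted as above them in a channel where its foreground intensity exceeded that of 95% of the array's empty positions, its limit there. On all 9 injured-against-sham arrays this held for 7 of 9 measured rod genes, 11 of 14 cone genes and 6 of 18 ganglion cell genes, and for 0 of 7 lens genes. It held for 17.2% to 44.8% of zebrafish probes in Cy5 and for 38.7% to 71.9% in Cy3. Of the 14067 probes 1555 differed between the dyes whatever the sample (limma, adjusted p under 0.05), with 1202 of them higher in Cy3.

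Of the isl2b probes, probe 2 gave the stronger signal. Probe 2 passed the limit in 16 of 22 channels, namely 6 of 9 injured, 6 of 9 sham and all 4 unoperated ones. Probe 1 passed it in 3 of 22, namely 1 injured and 2 sham channels and no unoperated one. Ranked by mean intensity among the zebrafish probes of an array, probe 2 stood at a median percentile of 74.3 (46.3 to 85.8 over the 11 arrays) and probe 1 at 26.4 (14.0 to 61.7). Statements on probe 1 are therefore statements about a spot that mostly lay at the level of empty positions.

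**Figure D1:**
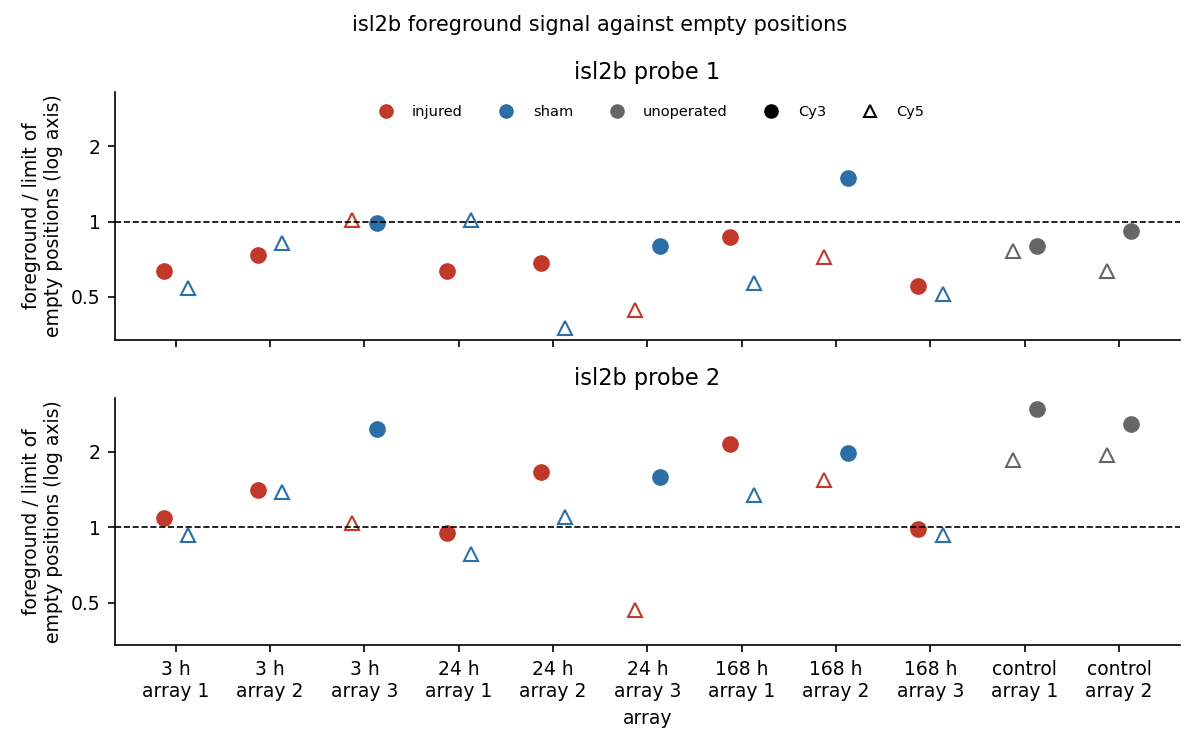
Foreground intensity of each isl2b probe divided by the limit of the empty positions, by array and channel (log axis, dashed line at 1; circles Cy3, open triangles Cy5; red injured, blue sham, grey unoperated). Probe 1 exceeds the limit in 3 of 22 channels and probe 2 in 16 of 22, and on 24 h array 3 both injured spots lie below 0.5.

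At 24 h both isl2b probes had their lowest injured-over-sham value. Probe 1 stood at a log2 ratio of -0.84 ± 0.38 (SE of the fit, n = 3 arrays) and probe 2 at -1.21 ± 0.39. Of all probes, 1.76% (248) had a lower 24 h value than probe 1 and 0.299% (42) a lower one than probe 2. Of 14065 probes tested at 24 h, 0 (0%) passed limma's test after Benjamini-Hochberg adjustment over the array and 703 (5.00%) stood at an unadjusted p under 0.05, so the rank is that of a gene picked from an array on which no single probe passed. In RNA from the whole tissue, fewer ganglion cells and less transcript per cell cannot be told apart.

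The 3 arrays at 24 h did not give the same picture for the probes. Probe 1 had log2 ratios of -1.42, 0.31 and -1.30 on arrays 1, 2 and 3. Probe 2 had 0.20, -0.92 and -2.54 on the same arrays. As measured, each probe was thus lower in injured RNA on 2 of 3 arrays, with array 3 low for both. With the fitted dye effect taken out, probe 1 had -1.52, 0.21 and -1.20 and probe 2 had -0.18, -1.30 and -2.15. Probe 2 was then below 0 on all 3 arrays, and both probes were below 0 on arrays 1 and 3. For probe 2 that dye effect rested largely on array 3. With array 3 left out, the 3 h value of probe 2 was -0.34 (-0.46 with all arrays), near the -0.33 found with no dye term. The value of probe 2 below 0 on array 1 thus depends on array 3.

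On array 3 the scanned spots themselves were weak in the injured channel. Probe 1 had a foreground intensity of 135 in injured RNA (Cy5) against a local background of 153 and an empty-position limit of 305, and 354 in sham RNA (Cy3, limit 444). Probe 2 had 142 in injured RNA against a local background of 192, and 707 in sham RNA. Both injured spots lay under their surroundings, as did 5.28% of zebrafish probes in that channel, so the injured side of array 3 held no measured isl2b signal.

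On arrays 1 and 2 the signals were as follows. Probe 1 read 291 injured against 613 sham on array 1, where the sham spot alone passed its limit (605), and 251 against 160 on array 2, where neither did. Probe 2 read 434 injured against 472 sham on array 1, where neither passed, and 609 against 468 on array 2, where both passed. The ratios of probe 2 on arrays 1 and 2 changed sign in the normalisation. Before it the log2 foreground ratio of injured over sham was -0.12 on array 1 and 0.38 on array 2. After correction for background and for the dye trend with intensity it was 0.20 and -0.92. At the other times the sign of probe 2 changed on 168 h array 2 (-0.35 to 0.32) and array 3 (0.25 to -0.33). It also changed, near 0, on 3 h array 1 (0.02 to -0.03).

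**Figure D2:**
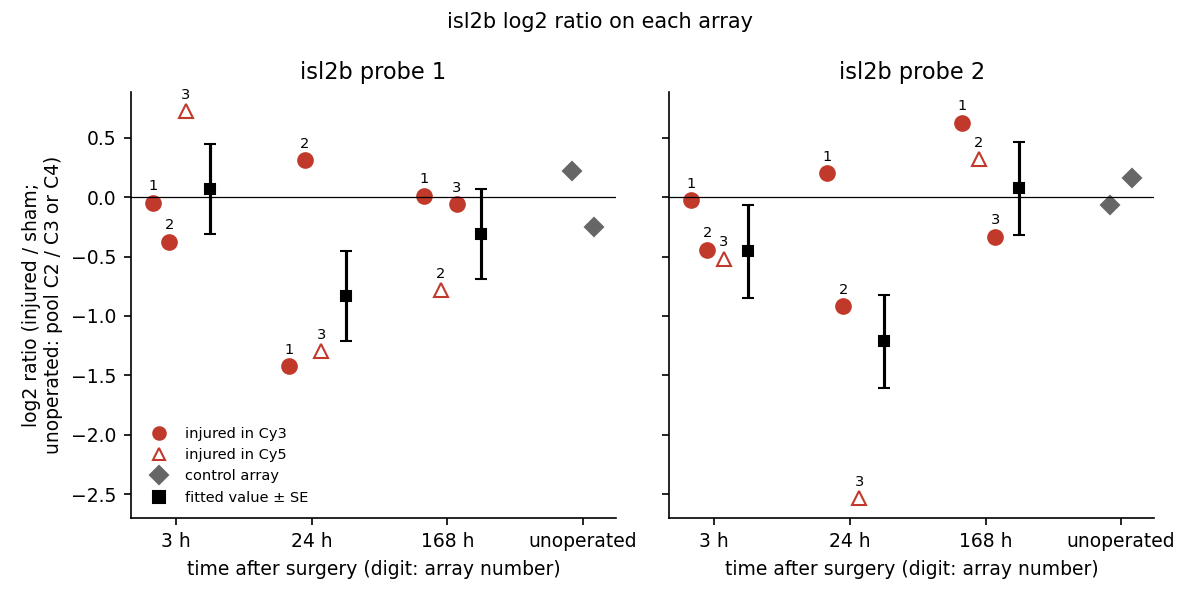
Log2 injured over sham of each isl2b probe on each array by time after surgery (red circles injured in Cy3, open triangles injured in Cy5, digits the array number), the fitted value with its SE (black squares), and the ratios between unoperated pools (grey diamonds). The array ratios are plotted before the dye effect is taken out, and the fitted values after it. At 24 h the fitted values are -0.84 and -1.21, and 1 of the plotted ratios is above 0 for each probe.

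Because probe 1 never passed the limit in injured RNA at 24 h, no measured fold can be given for it. For a rough figure, the side that never passed was to be raised to the weakest signal above the empty positions. Its own values were not below that signal on any array at any time, so nothing was raised. The 24 h figure is thus the plain ratio of mean levels, with sham 1.75-fold brighter than injured. With the 5th percentile of signals above the empty positions as the floor, the figure was 1.02-fold. At 168 h it was 1.21-fold with sham brighter (1.01-fold with the 5th percentile). At 3 h it was 1.07-fold with injured brighter, but the 5th percentile gave a ratio under 1 (0.81), so no fold is given there. At each time the brighter side passed its limit on only 1 of 3 arrays, and its mean includes the spots that did not pass. These figures are therefore not lower bounds of a fold. They come from channel levels with unbalanced dyes and are open to dye bias.

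Leaving out single arrays changed the size of the 24 h values, most of all for probe 2 without array 3. Probe 1 stood at -0.49 without 24 h array 1, at -1.36 without array 2 and at -0.51 without array 3. Probe 2 stood at -1.73 without array 1, at -1.17 without array 2 and at -0.39 without array 3. All these values were below 0, and array 3 decided most of the size for probe 2.

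Other processing kept the 24 h sign for both probes and moved its size. Without background correction probe 1 stood at -0.47 and probe 2 at -0.77, and with a normexp offset of 0 at -1.40 and -2.13. In the authors' deposited table the 24 h values were -0.42 and -0.71. With injured RNA in Cy5 on every array, as the labels have it, they were -0.06 and -0.61.

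**Figure D3:**
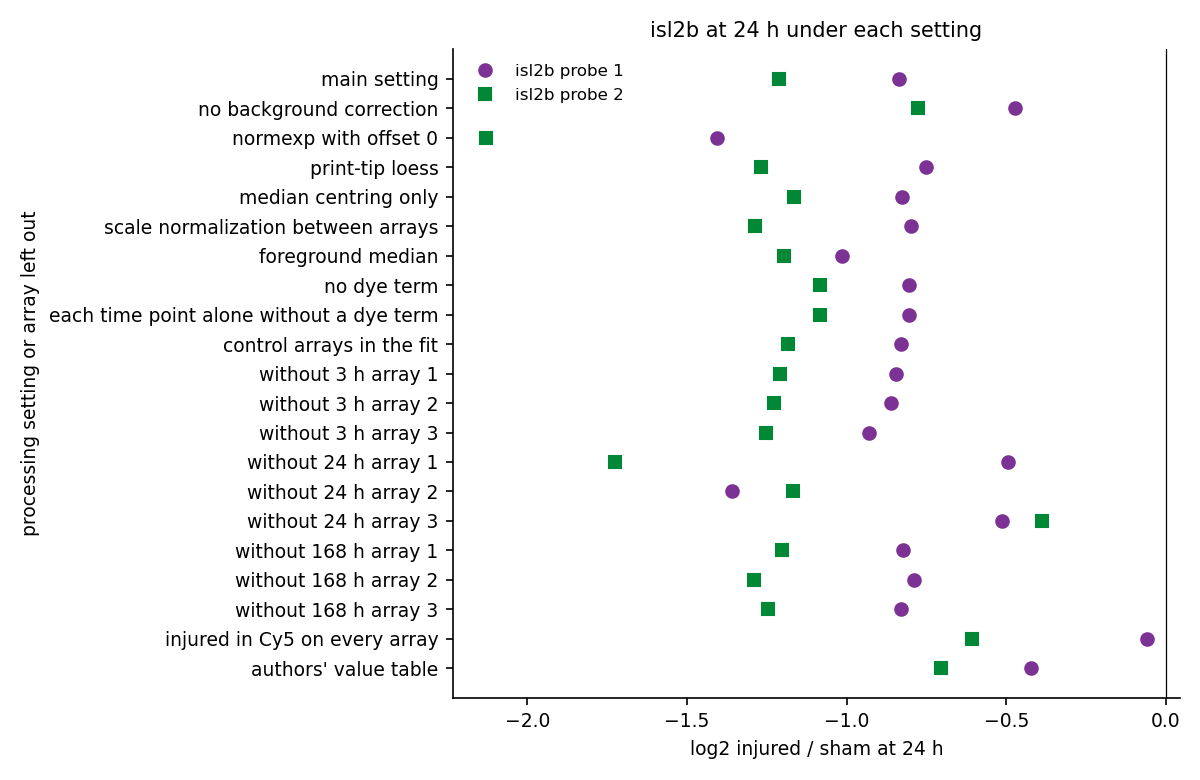
Log2 injured over sham at 24 h for isl2b probe 1 (purple circles) and probe 2 (green squares) under each processing setting and with each array left out. All points lie below 0, from -2.13 (probe 2, normexp with offset 0) to -0.06 (probe 1, injured in Cy5 on every array).

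At 3 h the probes disagreed in sign. Probe 1 stood at 0.07 ± 0.38, with -0.05, -0.38 and 0.72 on the 3 arrays, and at -0.59 without array 3. Probe 2 stood at -0.46 ± 0.39, with -0.03, -0.44 and -0.52. All 3 arrays of probe 2 were below 0, which held for 10.5% of all probes at 3 h. At this time 0 of 14067 probes (0%) passed limma's test and 630 (4.48%) stood at an unadjusted p under 0.05.

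At 168 h both probes stood within 1 SE of 0. Probe 1 stood at -0.31 ± 0.38, with 0.01, -0.78 and -0.06 on the 3 arrays, so that array 2 carried the value, which was 0.024 without it. Probe 2 stood at 0.07 ± 0.39, with 0.62, 0.32 and -0.33, at -0.47 without array 2 and at 0.47 without array 3. At 168 h 0 of 14067 probes (0%) passed and 1101 (7.83%) stood at an unadjusted p under 0.05.

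Between times, the 24 h value of probe 1 lay below that of 3 h by a log2 difference of -0.90 ± 0.52 and below that of 168 h by -0.53 ± 0.52. For probe 2 the differences were -0.75 ± 0.54 and -1.29 ± 0.54. Each probe was lower at 24 h than at both other times in the fit, which is part of what the gene was chosen for and was not tested.

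The dye effect of the fit was small for probe 1 and larger for probe 2. Cy5 minus Cy3 was -0.09 ± 0.23 for probe 1 and -0.38 ± 0.23 for probe 2 on the log2 scale. With no dye term the 3 h value of probe 2 was -0.33 and its 168 h value 0.20. With the dye term kept and 24 h array 3 left out, the 3 h value was -0.34. The dye effect of probe 2 thus rested largely on that array, whose injured Cy5 spot lay under its surroundings.

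Over the 9 arrays the probes followed each other weakly. After the dye effect was taken out, their log2 ratios correlated at r = 0.168, with the same sign on 5 of 9 arrays. Without 24 h array 3 the correlation was -0.242 over 8 arrays, with the same sign on 4. Among all 1381 pairs of probes with 1 accession the median r was 0.0298, with quartiles of -0.245 and 0.308, and among the 73 pairs above the empty positions on all 9 arrays it was 0.159. The isl2b probes thus agreed about as little as other probe pairs on this array, and the arrays share dye and intensity trends that enter such correlations.

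Between unoperated pools the isl2b ratios were small. Probe 1 had log2 ratios of 0.22 (C2 over C3) and -0.25 (C2 over C4), and probe 2 of -0.06 and 0.16. Over all probes the SD of the log2 ratio was 0.62 and 0.74 on these arrays. The control arrays carry no dye swap, so these ratios include any dye effect. The control column of the authors' deposited table gave -0.69 for probe 1 and -0.12 for probe 2, the latter being a value repeated in 3573 of 14240 lines, and this column did not follow the control arrays (r = 0.0278 over probes).

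As a level in each pool rather than a ratio, isl2b was lowest in injured eyes at 24 h for both probes. These levels come from the same spots as the ratios, with dyes unbalanced within each group of operated pools. In injured RNA at 24 h probe 1 passed the limit in 0 of 3 channels and probe 2 in 1 of 3. The means there include 24 h array 3, whose injured side held no measured isl2b signal. Levels are log2 channel intensities normalised within and between arrays, given as mean ± SD over 3 pools, and a level of probe 1 cannot be set against one of probe 2. Probe 1 stood at 7.02 ± 0.49 in injured eyes at 24 h (6.51 to 7.49) and at 7.82 ± 0.64 in sham eyes at 24 h (7.18 to 8.47), the lowest and the highest of its 7 conditions. The pools of these groups overlapped. In between lay unoperated eyes at 7.31 ± 0.16, injured at 168 h at 7.47 ± 0.25, sham at 3 h at 7.63 ± 0.30, injured at 3 h at 7.73 ± 0.63 and sham at 168 h at 7.75 ± 0.33. No neighbours in this order differed by more than the larger of their SDs.

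Probe 2 ranged wider. It stood at 7.53 ± 0.97 in injured eyes at 24 h (6.44, 7.86 and 8.30) and at 8.62 ± 0.84 in sham eyes at 24 h (7.66, 8.98 and 9.22), again with overlap. Injured at 3 h followed at 8.46 ± 0.22, sham at 168 h at 8.61 ± 0.29, sham at 3 h at 8.79 ± 0.18 and injured at 168 h at 8.81 ± 0.41. Unoperated eyes were highest at 9.45 ± 0.13 (9.30 to 9.56), above every operated pool (highest 9.29), and this was the only step between neighbours larger than both SDs. Unoperated pools were hybridised only on the control arrays, so array and group cannot be told apart, and in foreground over the empty-position limit the same channels (1.85 to 2.96) overlapped the operated ones (up to 2.46).

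**Figure D4:**
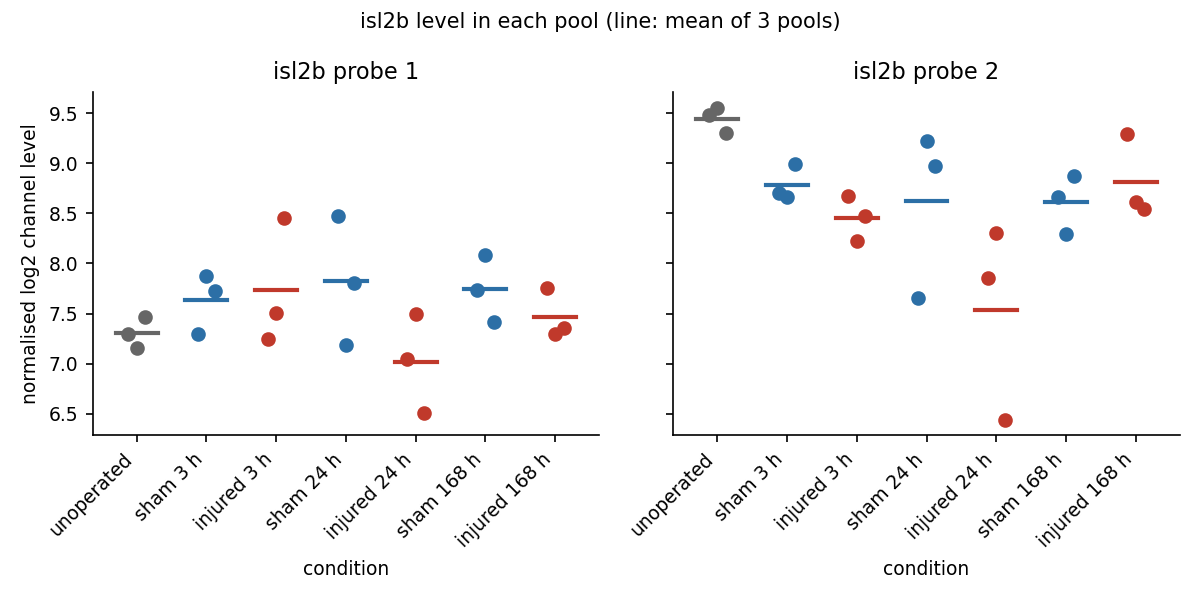
Normalised log2 channel level of each isl2b probe in every pool by condition, with a line at the mean of 3 pools (pool C2 averaged over its 2 arrays). Injured eyes at 24 h are lowest for both probes (means 7.02 and 7.53) and overlap their sham pools, and unoperated eyes are highest for probe 2 only (mean 9.45).

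In the fit of all 9 arrays the other islet genes had positive 24 h values, which for isl1a turned negative without 24 h array 3 (-0.19) and with median centring only (-0.16). The paralogue isl2a also had a pair of probes. Its brighter one was above the empty positions in 11 of 22 channels, all of them Cy3, so that no array measured both sides, and stood at 0.12 ± 0.30 at 3 h, 0.28 ± 0.30 at 24 h and -0.04 ± 0.30 at 168 h. At 24 h its arrays read 0.42, 0.28 and 0.27. Its dimmer probe, above the empty positions in 3 of 22 channels, stood at 0.35, 0.47 and 0.47 (SE 0.29 each), and no channel passed at 24 or 168 h. The probe of isl1a, which in vertebrates marks motor neurons and several retinal cell types, passed the limit in 2 of 22 channels and stood at 0.36, 0.14 and -0.47 (SE 0.37 each), with no channel above the limit at 3 or 24 h. These are ratios of spots mostly at the level of empty positions, and give no fold. None of these passed limma's test over the array (0 of 14065 probes at 24 h, 0%), and the difference between isl2b and isl2a was not tested.

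The other ganglion cell genes mostly had 24 h values below 0 as well, and none was as low as either isl2b probe. As isl2b was chosen with its values known, that order was not tested. On the amacrine and horizontal cell list calb2b stood lower than isl2b probe 1, at -1.12 ± 0.35. The ganglion cell list was written with earlier results of these data known, and 18 of its 35 genes were measured besides isl2b. Of these 18, 12 had a 24 h value below 0 (against 50.9% of all probes), with a median of -0.27 against -0.01 over all probes. At 24 h 7 of the 18 exceeded the limit on both sides at least once, and all 7 were below 0. The other 11, with 5 below and 6 above 0, had no measured signal on 1 side or both. The share below 0 among all probes above the limit on both sides was not worked out, so the count of 7 has no matched background. The 6 genes whose probe exceeded the limit in at least 1 channel on all 9 arrays were all below 0, against 46.7% of such probes, with a median of -0.38. They were rbpms2b at -0.47 ± 0.32 (an RNA-binding protein of ganglion cells), robo2 at -0.43 ± 0.31 (a Slit receptor that guides their axons), barhl2 at -0.40 ± 0.29 (a homeodomain factor), alcama at -0.37 ± 0.35 (an adhesion molecule of growing axons), tbr1b at -0.28 ± 0.33 (a T-box factor) and inab at -0.26 ± 0.29 (an intermediate filament). In sham RNA alcama passed the limit in only 6 of 9 channels and tbr1b in 7 of 9, each in 2 of 3 at 24 h. None of the 18 genes passed limma's test, and 0 stood at an unadjusted p under 0.05. Among genes above the limit on all 9 arrays by the same rule, 11 of 11 cone and 6 of 7 rod genes also lay below 0. Their 24 h medians were -0.28 and -0.56. Of Müller glia genes 1 of 7 did so, and of amacrine and horizontal cell genes 0 of 3. A low 24 h value was thus not particular to the ganglion cell list.

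At 24 h the list differed between arrays. Its medians were 0.16, -0.32 and -0.17 on arrays 1, 2 and 3, and 0.09 and 0.11 between unoperated pools. As measured, isl2b probe 2 had the same signs on arrays 1, 2 and 3, and probe 1 had the opposite sign on arrays 1 and 2. With the dye effect taken out, probe 2 was below 0 on array 1 too (-0.18), but that effect rested largely on array 3. Without array 2 the list median was -0.01 with 9 of 18 genes below 0, while the 6 brighter genes had a median of -0.25 and were all below 0. Without array 3, 5 of these 6 were below 0, with a median of -0.29. The summed normalised intensity of the 18 genes was lower in injured than in sham RNA in 3 of 3 pairs at 24 h (12266 to 13814 against 13258 to 17782). The same held for 3 of 3 pairs at 3 h (13664 to 15215 against 14207 to 16232) and for 0 of 3 at 168 h.

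**Figure D5:**
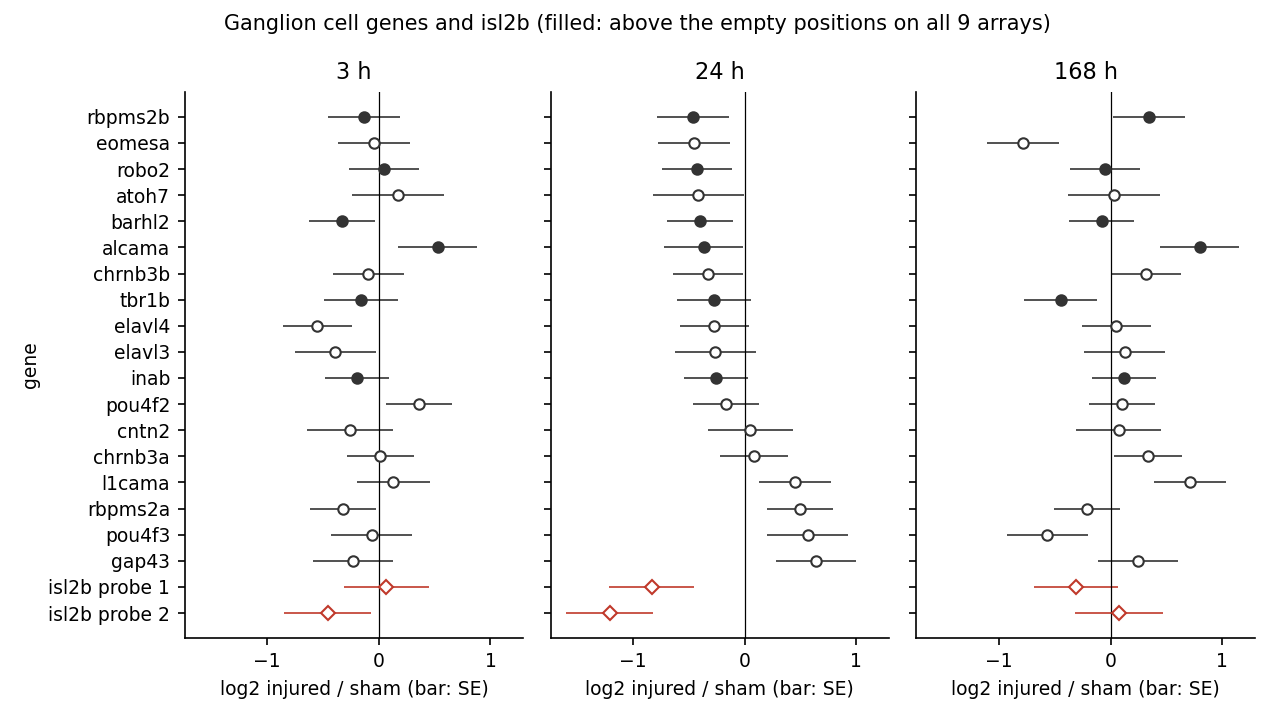
Fitted log2 injured over sham with SE for the 18 measured ganglion cell genes (circles, filled where the probe is above the empty positions on all 9 arrays) and the isl2b probes (red diamonds) at 3, 24 and 168 h, ordered by the 24 h value. At 24 h 12 of 18 genes, all 6 filled ones and both isl2b probes lie left of 0, and at 168 h 6 of 18 genes do.

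At 3 h 12 of the 18 genes lay below 0 (50.1% of all probes) with a median of -0.11, among them 4 of the 6 brighter genes (43.9% of such probes), and at 168 h 6 of 18 (49.8%) with a median of 0.09. At 168 h alcama stood at 0.80 ± 0.35 (limma, adjusted p = 0.619), and at 0.42 without 168 h array 1. At that time l1cama, an adhesion molecule of growing axons, stood at 0.71 ± 0.33 (limma, adjusted p = 0.632), and at 0.17 without array 2. The T-box gene eomesa stood at -0.79 ± 0.32 (limma, adjusted p = 0.588), but its 168 h arrays read 0.37, -1.71 and 0.10, and it exceeded the limit in 1 of 3 channels on each side. Its 3 arrays with injured RNA in Cy5 were all below 0 and the other 6 all above 0, and with no dye term it stood at -0.41. On this list 2 genes higher in injured RNA and 1 lower thus stood at an unadjusted p under 0.05 at 168 h, against 4.23% and 3.60% of all probes, and none did at the other times. The growth cone gene gap43 stood at 0.64 ± 0.36 at 24 h, with 0.34, 0.62 and 0.77 on the arrays, and was above the empty positions in 1 of 3 injured channels and no sham channel there. It stood at 0.41 without background correction and at 1.06 with a normexp offset of 0. The POU factor gene pou4f3 and the RNA-binding protein gene rbpms2a were above them in no channel at 24 h, so their 24 h values above 0 (0.56 and 0.50) compare spots at the level of empty positions.

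Other cell type lists also departed from 0 at 24 h, and their part in the isl2b values was not tested. Over all probes, 50.9% lay below 0 at 24 h. Of 9 measured rod genes 7 lay below 0 (median -0.55), and the summed intensity of the list was lower in injured RNA in 3 of 3 pairs (109741 to 130696 against 131612 to 170334). Of 14 cone genes 13 lay below 0 (median -0.26), with sums of 102128 to 178574 injured and 143623 to 166795 sham. Of 13 genes of surface epithelium 11 lay above 0 (median 0.71), with sums of 16446 to 26076 injured and 7495 to 18086 sham. The medians were 0.25 for 11 Müller glia genes, 0.25 for 17 skeletal muscle genes, 0.21 for 9 leukocyte genes and 0.22 for 4 genes of pigment epithelium. They were -0.08 for 10 amacrine and horizontal cell genes, -0.23 for 4 bipolar cell genes, 0.11 for 6 red blood cell genes and -0.11 for 7 lens genes. Despite its median near 0, the amacrine and horizontal cell list had lower sums in injured RNA in 3 of 3 pairs (6309 to 7015 against 7192 to 7737).

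The LIM-homeodomain family and its cofactors gave 16 measured genes of 28 besides isl2b. At 24 h 8 of 16 lay below 0 with a median of 0.02, and at 3 h 7 of 16 with a median of 0.04. At 168 h all 16 lay below 0, against 49.8% of all probes, with a median of -0.24, although 0 passed limma's test and only lhx9 had an unadjusted p under 0.05. At that time 9 of the 16 exceeded the limit on both sides at least once, all 9 below 0. The other 7 had no measured signal on 1 side or both. For the count of 9 no share over all probes above the limit on both sides was worked out. The values ran from -0.80 to -0.003, and the dimmer isl2a probe, which did not stand for its gene here, was at 0.47. Without 168 h array 2, on which injured RNA was in Cy5, 10 of 16 were below 0 with a median of -0.27. The list medians were -0.03, -0.29 and -0.24 on the 168 h arrays and -0.10 and 0.04 between unoperated pools.

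Within this family the named genes rested on very different signals. The LIM-only gene lmo2, a partner of blood and vessel transcription factors, was above the empty positions in all 18 operated channels and stood at -0.38, 0.12 and -0.57 at 3, 24 and 168 h (SE 0.33 each), the last being -0.31 with median centring only. Its relative lmo4b, detected as often, stood at 0.16, -0.01 and -0.41 (SE 0.36 each), the last being 0.095 without 168 h array 3. The homeodomain gene lhx9 stood at -0.80 ± 0.35 at 168 h (limma, adjusted p = 0.618), but its single arrays at that time read 0.50, -3.09 and 2.02, its 3 arrays with injured RNA in Cy5 were all below 0 and the other 6 all above 0, and its other probe stood at -0.18. Without 168 h array 2 it stood at -0.42. The genes lhx8a and lhx1b were above the empty positions on 2 and 1 of 9 arrays, so their ratios mostly compare spots at the level of empty positions. Of the Ldb cofactor genes only ldb1b was above them on both sides at 24 h, at 0.11 ± 0.40.

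Of the genes known for axon regrowth, atf3 and tubb5 had the highest values. The stress factor gene atf3 stood at 2.01 ± 0.33 at 24 h, with all 3 arrays between 1.55 and 2.26, and did not pass (limma, adjusted p = 0.265). The tubulin gene tubb5 stood at 2.31 ± 0.33 at 168 h, with 1.83, 2.54 and 2.47 (limma, adjusted p = 0.0683). Its other 3 probes read 0.78, -0.26 and 0.40 at that time. Of 14 measured genes of 20 on this list, 0 passed at any time and 8, 8 and 11 lay above 0 at 3, 24 and 168 h, with medians of 0.12, 0.16 and 0.39. Below 0 lay 6, 6 and 3 of them, against 50.1%, 50.9% and 49.8% of all probes, so the counts at 3 and 24 h were near that share. The 24 h median turned to -0.083 without 24 h array 3.

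The remaining named genes of this list did not pass either. The cytokine feedback gene socs3a stood at 0.69 ± 0.31 at 3 h (0.31 without 3 h array 3) and 0.48 ± 0.31 at 24 h (0.20 without 24 h array 2). The proneural factor gene ascl1a of reprogrammed Müller glia stood at 0.97 ± 0.41 at 24 h, and at 0.58 without array 2. The immediate early gene jun stood at 0.71 ± 0.31 at 24 h, and at 0.43 without array 3. Its 24 h arrays read 1.47, 1.05 and 0.31, the last with injured RNA in Cy5. Over all times its arrays with injured RNA in Cy3 were all above 0, while those with injured RNA in Cy5 read -0.13, 0.31 and -1.22. In sham RNA jun and ascl1a exceeded the empty-position limit in 1 of 3 channels at 24 h, and socs3a in 1 of 3 at 3 h. The transcription factor gene stat3 stood at -0.74 ± 0.36 at 24 h, but its arrays read 0.52, 0.03 and -1.96, and it stood at -0.41 without array 3. Its other probe stood at 0.56. In limma the adjusted p-values at 24 h were 0.99 for socs3a, 0.987 for ascl1a, 0.987 for jun and 0.99 for stat3.

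The genes whose ratios ran most like isl2b over the 9 arrays differed between its probes. Among 2164 probes with a proper gene symbol, above the empty positions in at least 1 channel on all 9 arrays, 11 had r over 0.8 with probe 1 and 11 with probe 2. How many unrelated probes would reach such an r over 9 arrays was not worked out, so these counts show no link to isl2b. Most like probe 1 were pdha1a (r = 0.897), cdk11b (0.884), mpx (0.878), ogna (0.832) and polr1b (0.828). Among those most like probe 2 were men1 (0.867), spry2 (0.837), barhl2 (0.835) and rpl15 (0.833). Of the genes named here only barhl2 is on the ganglion cell list.

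These likenesses are descriptions over 9 arrays that share dye and intensity trends. Genes picked for probe 1 had r between 0.122 and 0.568 with probe 2, and those picked for probe 2 had r between -0.196 and 0.40 with probe 1. For barhl2 the correlation with probe 2 was 0.737 without 24 h array 3, and its 24 h ratios were -0.03, -0.61 and -0.62 against 0.20, -0.92 and -2.54 for probe 2. For rpl15 it was 0.618 without that array, on which rpl15 read -3.97.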

How the data were processed

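Per the file headers, the deposited scanner output lists foreground and local background intensity of 14784 spots in 2 channels, not normalised, with a flag per spot. A table deposited by the authors has a log2 value for each spot in each comparison. The submitters' processing notes name limma without a version, and other steps are not given in the sources used here. With limma 3.58.1 in R 4.3.3, intensities were background-corrected (normexp, offset 50) and loess-normalised within arrays (span 0.3, 4 iterations, weight 0 for empty, Arabidopsis and bad spots). All 9 arrays of operated eyes entered 1 fit with 1 injury coefficient per time, signed by dye orientation from the array names, and 1 dye term, leaving 5 residual degrees of freedom (prior 9.993). P-values were adjusted by Benjamini-Hochberg over all zebrafish probes at 0.05, and the code was tested on simulated data. Pools are biological replicates per the labels; the number of fish per pool is not given in the sources used here, and the number of arrays limits precision.

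Probes were named through accession or symbol with a RefSeq gene table: 7755 by accession. Of several probes of a list gene the brightest was used. From each of the ganglion cell, LIM-homeodomain and axon regeneration lists the 6 genes with the smallest F test p over the times were named, plus all islet genes and, per isl2b probe, the 5 genes most like it, of which 1 is not reported here. Members, lists and rules were chosen with earlier results of these data known. No sequence is printed.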

Additional observations from a re-analysis of the deposited data

Results flagged for a closer look

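Among the named genes, 3 had every array of 1 time on one side of 0 and every array of another time on the opposite side. The array ratios are given before the dye effect is taken out and the fitted differences after it, and none of these differences was tested. All 3 lay mostly at the level of the empty positions, so the values describe weak spots and establish no direction. The islet gene isl1a had 0.06, 0.53 and 0.16 at 24 h and -0.01, -0.54 and -0.52 at 168 h, a fitted difference of -0.61 on the log2 scale (168 minus 24 h). Its probe exceeded the empty-position limit in 0 channels at 24 h and in 1 at 168 h. The fitted dye effect of isl1a (Cy5 minus Cy3) was -0.34 ± 0.22, larger in size than the 0.06 on 24 h array 1. With it taken out that array falls below 0, so for isl1a the reversal holds only in the ratios as measured. The ganglion cell gene rbpms2a had 0.44, 0.70 and 0.32 at 24 h and -0.18, -0.38 and -0.13 at 168 h, a fitted difference of -0.71, and exceeded that limit in 0 channels at 24 h. The LIM-homeodomain gene lhx8a had -0.34, -0.70 and -0.27 at 3 h and 0.53, 0.31 and 0.61 at 24 h, a fitted difference of 0.92 (24 minus 3 h), and exceeded that limit in no channel at either time. The isl2b probes showed no such reversal between times.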

How the results depend on the processing

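For both isl2b probes the 24 h value stayed below 0 with each of the 9 arrays left out (-1.36 to -0.49 for isl2b probe 1, -1.73 to -0.39 for isl2b probe 2) and under the other 11 settings. Arrays of other times reach this value only through the shared dye term, so leaving them out could move it little. The settings also overlap: no dye term and each time point alone gave the same value (-0.80 for isl2b probe 1). The sign was known when the gene was chosen. At 3 h the values ranged from -0.59 to 0.34 (isl2b probe 1) and from -0.74 to -0.27 (isl2b probe 2) over left-out arrays, and the labels' dye put isl2b probe 2 log2 injured over sham at 3 h at -0.017. At 168 h the ranges were -0.42 to 0.024 and -0.47 to 0.47, and isl2b probe 2 was also at or below 0 without background correction (-0.01) and with offset 0 (-0.04). The cause was not tested. The number of probes passing over the whole array at 168 h was 5 without background correction and 1 each with median centring only, with the foreground median and with only probes above the empty positions on all 9 arrays, and 0 to 10 over left-out arrays (10 without 168 h array 1). The number of axon regeneration genes passing at 168 h was 1 under each of these 4 settings, and 0 to 1 over left-out arrays. Probes at an unadjusted p under 0.05 ranged from 106 to 752 at 3 h, 170 to 887 at 24 h and 380 to 1255 at 168 h, fewest where dim probes were left out. That setting tested only 3306 probes (3305 at 24 h) against 14067 (14065 at 24 h), so its counts cannot be set against the others. No ganglion cell or LIM-homeodomain gene passed under any setting run. A filter on dim probes removes both isl2b probes, and slide or scan date as a block was not run, as the files used here name none. The count over the 6 brighter ganglion cell genes under each setting was chosen after seeing the data. Each array's ratio is already an injured-to-sham pair. No paired analysis was possible because, beyond that, replicate numbers mark nothing shared across times. Signal over background limits isl2b as well: probe 1 passed the empty positions in 3 of 22 channels.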
